A study of Homo sapiens with 12 samples.

Results

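Collagen chains were examined across the 4 groups of an RNA-seq experiment in HT1376, a human bladder carcinoma cell line. The members were all rows of the count table whose gene symbol reads COL, a type number, A and a chain number, which gave 44 of 60666 genes. They were divided into 11 fibrillar chains, 8 basement membrane chains (COL4A1 to COL4A6, COL15A1 and COL18A1) and 25 other chains. The last group holds 10 chains of fibril-associated collagens with interrupted helices (FACIT), 5 type VI chains, 3 short-chain network collagens, the anchoring fibril chain COL7A1, 4 transmembrane chains, and COL26A1 and COL28A1. Cells of HT1376 CT and HT1376 FOXP3 KO were each left untreated or given 100 ng/mL IFNγ for 48 hours, with 3 libraries a group numbered 11, 12 and 13. HT1376 FOXP3 KO was made by CRISPR with lentiviral guides to exon 2 of FOXP3, which encodes a forkhead transcription factor, and puromycin selection. HT1376 CT is a CRISPR control line with a guide to luciferase, named WT in the sample labels. Each line is a single-cell clone, so an effect of the knockout and a difference between the clones cannot be told apart. The sources do not say whether the 3 libraries of a group came from separate cultures, so p-values measure the spread between these libraries, which may be technical.

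Collagens are proteins of the extracellular matrix whose chains wind into a triple helix, either of identical chains or of fixed partners. Fibrillar collagens assemble into the tensile fibrils of connective tissue, with types I and III as bulk components and types V and XI as regulators of fibril diameter. Type IV chains form the network of basement membranes, in which COL4A1 pairs with COL4A2, COL4A3 and COL4A4 join COL4A5, and COL4A5 also joins COL4A6. Epithelial cells secrete basement membrane chains and anchor themselves with COL17A1, a transmembrane collagen of the hemidesmosome, and with COL7A1. Fibroblasts make most of the fibrillar collagen of a tissue, and IFNγ is known as a repressor of type I collagen genes in them.

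Libraries held 4490684 to 39270042 gene counts, the lowest in the IFNγ-treated HT1376 CT library 12. The 4 libraries numbered 12 stood apart from the others on the third principal component, which held 5.55% of the variance, and results that rest on them are given with and without them. FOXP3 had at most 3 counts in each library, so its RNA could not check the labels. The mitochondrial share was 3.10% to 3.63% of counts in the HT1376 CT libraries and 4.08% to 5.11% in the HT1376 FOXP3 KO libraries. Of 13 bladder epithelial markers, UPK3A had no count in any library and UPK1A at most 4, while CDH1, KRT7, KRT8, KRT18, GATA3 and UPK1B were expressed in every group, and the sums over the 13 markers overlapped between the lines (4388 to 5364 and 4492 to 5588 normalized CPM, that is counts scaled to library size by the trimmed mean of M values, TMM). Within that sum, means in untreated HT1376 CT and HT1376 FOXP3 KO were 84.9 ± 16.0 and 22.3 ± 1.11 for EPCAM, 379 ± 22.1 and 240.4 ± 28.8 for CDH1, and 643 ± 119.8 and 1234 ± 304.3 for KRT7. Summed levels of 10 fibroblast markers were 6.66 to 16.9 normalized CPM in HT1376 CT and 141 to 256 in HT1376 FOXP3 KO. Most of that gap was in DCN, a proteoglycan that binds collagen fibrils (1.01 and 106 normalized CPM in untreated HT1376 CT and HT1376 FOXP3 KO), and LUM, another such proteoglycan (0.199 and 79.6). Of the other 8 markers, PDGFRB (0.220 and 1.84) and TAGLN (1.53 and 6.25) also had higher means there and THY1 a lower one (7.52 and 0.100), FAP had means of 0.646 and 0.914 and ACTA2 of 0.559 and 0.981, and VIM had no count and POSTN and PDGFRA at most 3 in any HT1376 FOXP3 KO library. The mitochondrial share and these fibroblast markers moved with the line, and their part in the collagen differences was not tested. Endothelial markers summed to at most 9.38 and immune markers to at most 3.01 normalized CPM in any library.

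Collagen transcripts were more abundant in HT1376 FOXP3 KO, and different chains led in each line. The 44 chains together reached 2114 ± 148 normalized CPM (SD, n = 3) in untreated HT1376 CT and 3864 ± 431 in untreated HT1376 FOXP3 KO. With IFNγ the sums were 1904 ± 153 and 3753 ± 392. Fibrillar chains made up 84.0 ± 13.1 normalized CPM in HT1376 CT and 587 ± 116 in HT1376 FOXP3 KO, and basement membrane chains 541 ± 24.7 and 378 ± 17.0. The groups of lines did not overlap in either sum. COL17A1 had the most counts of all chains in the HT1376 CT libraries and COL12A1 in the HT1376 FOXP3 KO libraries, where it took 49.1% to 59.6% of collagen counts without IFNγ. Compared per kilobase of merged exons, the order in untreated HT1376 CT was COL17A1 (127 ± 18.5 CPM per kilobase), COL4A6 (28.7 ± 2.08), COL12A1 (24.3 ± 5.81) and COL4A5 (22.3 ± 1.59), with COL12A1 within the spread of both neighbours and COL4A6 above COL4A5. In untreated HT1376 FOXP3 KO it was COL12A1 (112 ± 0.978) and COL17A1 (98.1 ± 48.6), which overlapped, then COL1A2 (33.5 ± 7.04) and COL5A1 (17.4 ± 9.58). The spreads of COL1A2 and COL5A1 also overlapped, and the next chain, COL4A5 (13.4 ± 1.45), lay within that of COL5A1. At the other end, COL10A1, COL23A1, COL25A1, COL6A5, COL6A6 and COL9A1 had at most 3 counts in every library and were not tested. COL10A1, the chain of hypertrophic cartilage, had no count at all, which allows 0.0788 to 0.692 normalized CPM depending on the library.

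**Figure D1:**
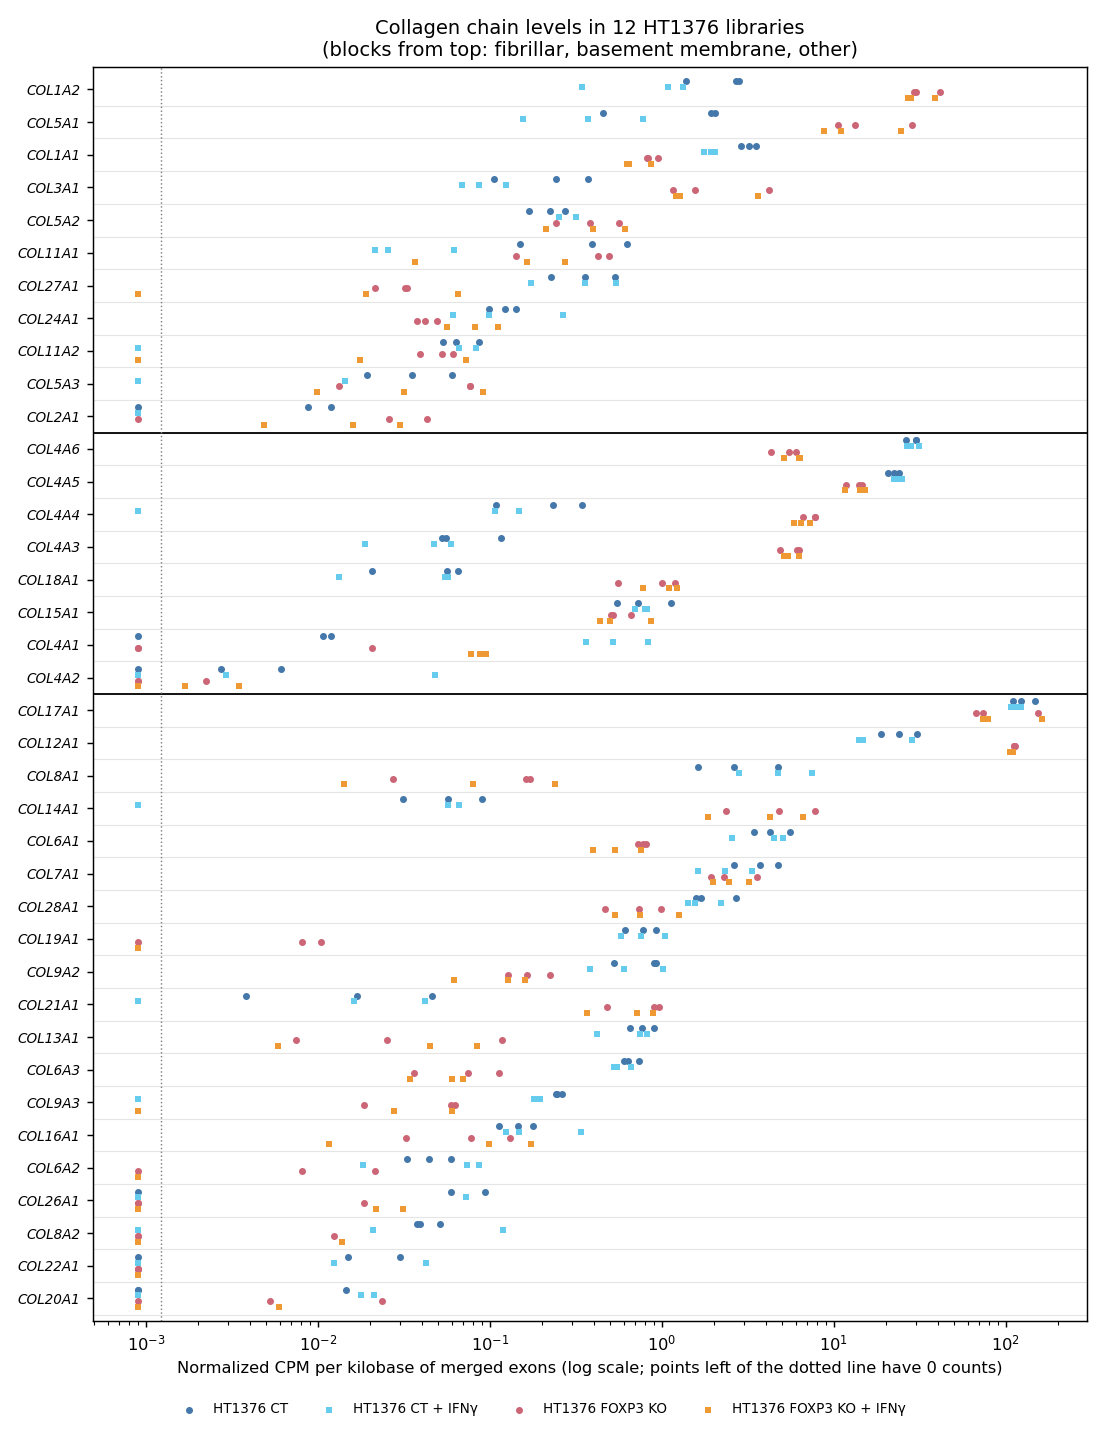
Levels of the 38 collagen chains with more than 3 counts in some library, in normalized CPM per kilobase of merged exons on a log axis, with 1 point per library and 4 groups of 3 libraries. By group means, COL17A1 is the highest chain in HT1376 CT and COL12A1 in HT1376 FOXP3 KO, where COL17A1 overlaps it. COL1A2, COL5A1, COL4A3, COL4A4 and COL14A1 lie farther right in HT1376 FOXP3 KO.

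The first question was which chains differ between the lines. Without IFNγ, HT1376 FOXP3 KO had 9 chains higher and 13 lower than HT1376 CT among 36 tested, at an adjusted p under 0.05 in the quasi-likelihood test of edgeR. Over all genes tested 32.1% passed, 14% higher and 18.2% lower, against 61.1% of the chains tested, of which several could pass the filter on low counts only through the line in which they were high. By group, 3 of 11 fibrillar chains were higher and 3 lower, 3 of 7 basement membrane chains higher and 2 lower, and 3 of 18 other chains higher and 8 lower. Median log2 fold changes were 0.65, -0.04 and -2.20, beside -0.02 over all genes tested, and the median of the other chains was -2.08 with chains at 3 counts or fewer set to their bound or ratio of counts. Under IFNγ, in libraries that the first comparison does not use, 9 chains were higher and 13 lower among 33 tested (66.7%), where 28.9% of all genes passed, 13.2% higher and 15.7% lower. All 9 of the higher chains and 11 of the 13 lower ones were those called without IFNγ. Both comparisons use the same clones, and their libraries pair by number within a line, so the shared calls are not an independent repeat. COL24A1 and COL9A3 were called lower only without IFNγ, and COL4A1 and COL6A2 only with it, and in none of these 4 was the difference between the treatments past the threshold in the interaction test. With the replicate number as a block, which changes the share of all genes to 36.6% without IFNγ and 34% with it, COL17A1 and COL7A1 were added and COL24A1 lost without IFNγ, and COL11A1 was added and COL6A2 lost with it.

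**Figure D2:**
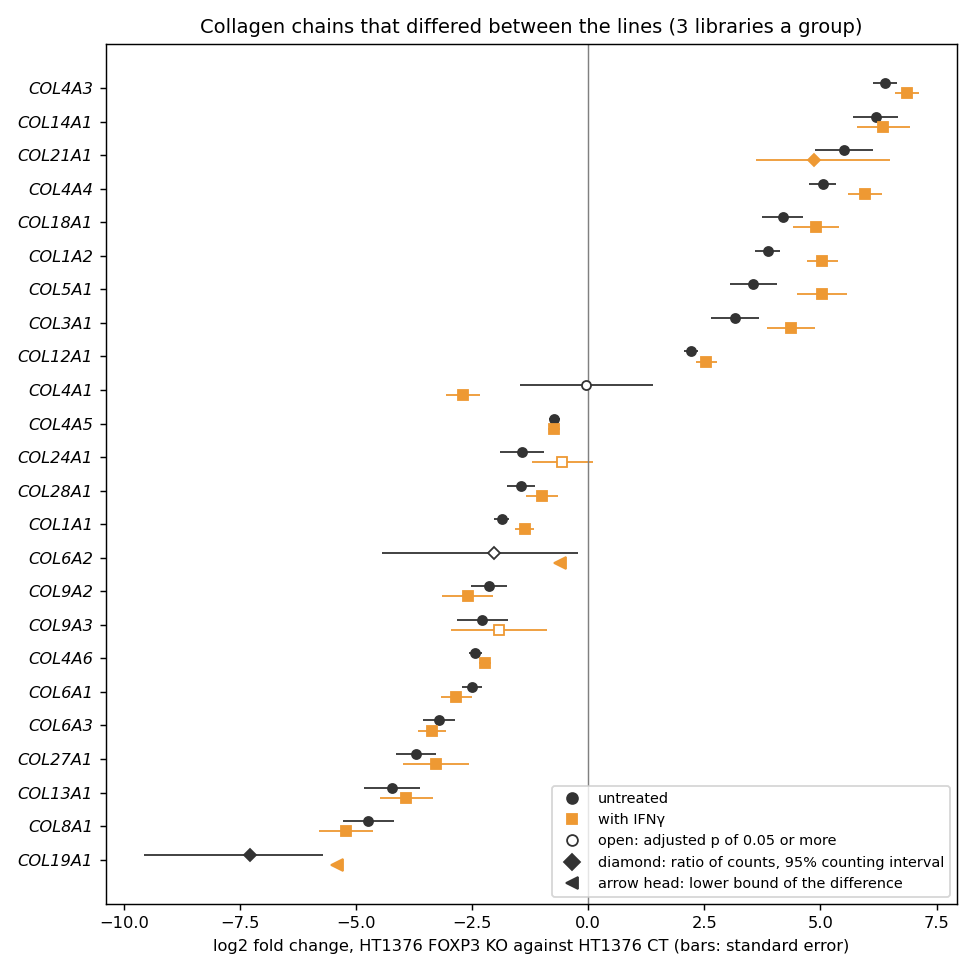
Log2 fold changes of the 24 chains called in either comparison of HT1376 FOXP3 KO with HT1376 CT, without IFNγ (dark) and with IFNγ (orange), with standard errors from the edgeR fit. Diamonds are ratios of summed counts with 95% counting intervals where 1 line had 1 to 3 counts in a library at most, and arrow heads are lower bounds where 1 line had none. COL4A3 (6.39 and 6.87) and COL14A1 (6.19 and 6.36) are at the top and COL19A1 at the bottom, and 20 chains were called on the same side in both.

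Among fibrillar chains, COL1A2, COL5A1 and COL3A1 were higher in HT1376 FOXP3 KO, while COL1A1 and COL27A1 were lower. COL1A2 (ENSG00000164692), the second chain of type I collagen, had 29.2, 14.9 and 30.4 normalized CPM in the untreated HT1376 CT libraries and 314, 322 and 450 in those of HT1376 FOXP3 KO. Its log2 fold change was 3.86 ± 0.26 (SE, adjusted p = 1.39e-06), and 5.04 ± 0.34 under IFNγ (adjusted p = 1.34e-06). COL1A1, its partner and the major chain of type I collagen, went the other way. COL1A1 had 25.8, 28.7 and 31.6 normalized CPM in HT1376 CT and 8.56, 7.34 and 7.49 in HT1376 FOXP3 KO. Its log2 fold changes were -1.87 ± 0.15 (adjusted p = 6.3e-06) and -1.37 ± 0.21 under IFNγ (adjusted p = 0.000618). Per kilobase, COL1A1 stood at 3.19 and COL1A2 at 2.30 CPM in untreated HT1376 CT, and at 0.866 and 33.5 CPM in untreated HT1376 FOXP3 KO, so COL1A1 led COL1A2 in the first line, within their spread, and stood far below it in the second. For COL1A1, 59 of its exonic bases are shared with an antisense long noncoding RNA.

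COL5A1, the main chain of the fibril-nucleating type V collagen, had 5.08, 21.6 and 22.8 normalized CPM in untreated HT1376 CT and 118, 316 and 148 in untreated HT1376 FOXP3 KO. The groups did not overlap, and the library numbered 12 was the highest of HT1376 FOXP3 KO in both treatments (316 and 273). The log2 fold change was 3.56 ± 0.51 (adjusted p = 0.000341) without IFNγ and 5.03 ± 0.54 (adjusted p = 3.99e-05) with it, and the call held without the libraries numbered 12. COL3A1, the type III chain of extensible tissues, was low in HT1376 CT at 1.64, 0.715 and 2.52 normalized CPM and reached 7.83, 10.5 and 28.2 in HT1376 FOXP3 KO. Its log2 fold changes were 3.16 ± 0.52 (adjusted p = 0.000838) and 4.37 ± 0.52 under IFNγ (adjusted p = 9.46e-05). COL5A2, the usual partner of COL5A1 and a neighbour of COL3A1 on chromosome 2 with the tails of both genes facing each other 19151 bases apart, was not called. Its means were 1.62 and 2.88 normalized CPM in the untreated lines. COL27A1, a cartilage-associated fibrillar chain, had 3.15, 5.01 and 7.46 normalized CPM in HT1376 CT and 0.301, 0.448 and 0.461 in HT1376 FOXP3 KO (log2 fold change -3.71 ± 0.44, adjusted p = 7.91e-05, and -3.28 ± 0.71, adjusted p = 0.00523, under IFNγ).

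COL11A1, a minor fibril chain often used as a marker of stromal activation in tumours, was present in both lines without IFNγ. Its levels were 5.72, 3.58 and 1.37 normalized CPM in HT1376 CT and 1.29, 3.85 and 4.50 in HT1376 FOXP3 KO, ranges that overlapped almost fully (log2 fold change -0.13 ± 0.55, adjusted p = 0.884). The sign of that difference turned when HT1376 CT library 11 or HT1376 FOXP3 KO library 11 was left out (0.47 and 0.31). Under IFNγ the log2 fold change was 2.02 ± 0.78, which did not pass (adjusted p = 0.0767, or 0.0423 with the replicate number as a block and 0.024 without the HT1376 FOXP3 KO library 11). COL24A1, a fibrillar chain of bone, had means of 1.16 ± 0.203 and 0.412 ± 0.0579 normalized CPM in the untreated lines and a log2 fold change of -1.43 ± 0.48 (adjusted p = 0.041). No fit without 1 of the 6 libraries called it (adjusted p up to 0.105), nor did the block (adjusted p = 0.0672). The remaining fibrillar chains COL2A1, COL5A3 and COL11A2 had mean levels below 0.5 normalized CPM in every group and were not called.

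**Figure D3:**
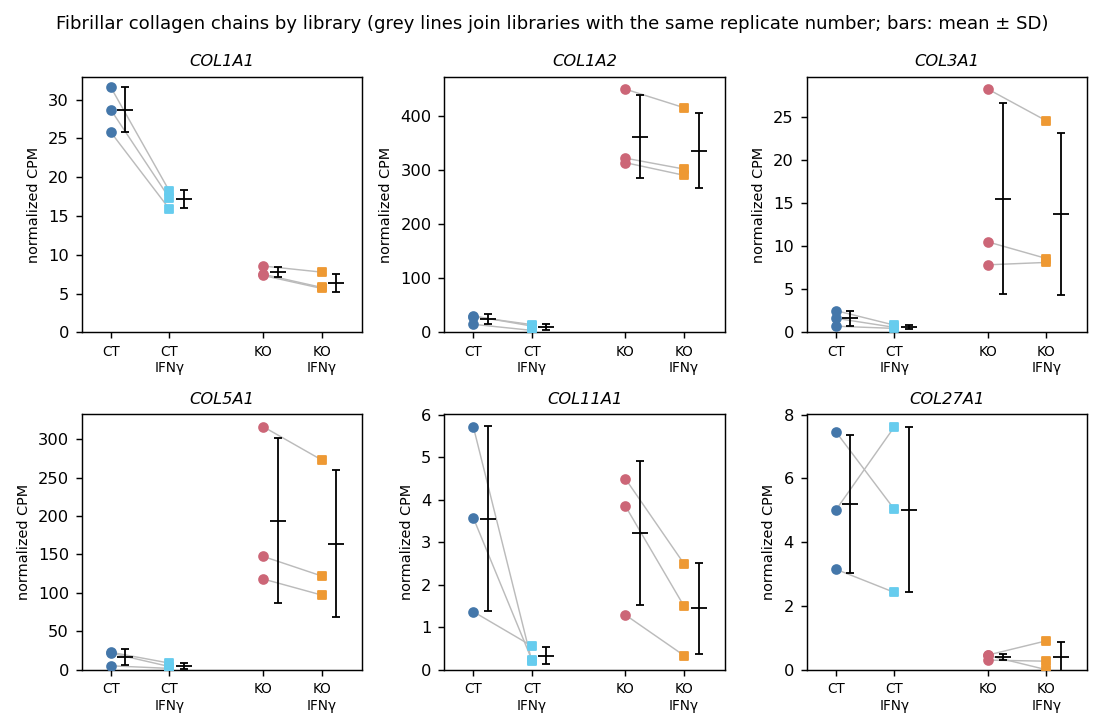
Normalized CPM of 6 fibrillar chains in each library, with mean ± SD of 3 libraries beside the points and grey lines between libraries of 1 line with the same number. COL1A2, COL3A1 and COL5A1 are higher and COL1A1 and COL27A1 lower in HT1376 FOXP3 KO, and COL11A1 is lowest in IFNγ-treated HT1376 CT (0.194 to 0.559).

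Among basement membrane chains, COL4A3 and COL4A4 were higher in HT1376 FOXP3 KO while COL4A5 and COL4A6 were lower. The type IV genes lie in head-to-head pairs, which is a known feature of the family. In GRCh38 with the GENCODE 44 annotation, COL4A3 (chr2:227164624-227314792, plus strand) and COL4A4 (chr2:227002714-227164453, minus strand) start 171 bases apart. COL4A5 (chrX:108439838-108697545, plus strand) and COL4A6 (chrX:108155607-108439497, minus strand) start 341 bases apart. COL4A1 (chr13:110148963-110307157, minus strand) and COL4A2 (chr13:110305812-110513209, plus strand) overlap by 1346 bases there, with starts 1345 bases apart. RefSeq starts differ from these. They lie 127 bases apart for COL4A1 and COL4A2, 419 for COL4A3 and COL4A4, and 380 for COL4A5 and COL4A6.

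COL4A3 had 0.642, 1.43 and 0.683 normalized CPM in untreated HT1376 CT and 76.7, 75.0 and 59.6 in untreated HT1376 FOXP3 KO. This was the greatest difference among the chains called higher, with a log2 fold change of 6.39 ± 0.26 (adjusted p = 4.2e-08). COL14A1, at 6.19 ± 0.48, lay within the standard error of it. COL4A4 had 1.28, 4.05 and 2.76 normalized CPM in HT1376 CT and 78.3, 91.9 and 91.1 in HT1376 FOXP3 KO, a log2 fold change of 5.05 ± 0.29 (adjusted p = 4.21e-07). Under IFNγ the log2 fold changes were 6.87 ± 0.25 and 5.96 ± 0.36 (adjusted p = 3.21e-08 and 6.57e-07). Both genes of this pair were thus higher, COL4A4 by 33.1-fold and COL4A3 by 83.7-fold without IFNγ. An antisense transcript, MFF-DT, shares 6.82% of the exonic bases of COL4A3.

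The pair on chromosome X moved in the opposite direction. COL4A6 had 279, 277 and 245 normalized CPM in untreated HT1376 CT and 56.1, 39.9 and 51.1 in HT1376 FOXP3 KO (log2 fold change -2.43 ± 0.14, adjusted p = 4.73e-07). COL4A5, which serves in both kinds of trimer, fell less, from 283, 246 and 267 to 172, 140 and 166 normalized CPM (log2 fold change -0.73 ± 0.12, adjusted p = 0.000652). Under IFNγ the log2 fold changes were -2.23 ± 0.13 for COL4A6 (adjusted p = 5.06e-07) and -0.74 ± 0.13 for COL4A5 (adjusted p = 0.00115). Per kilobase, COL4A5 and COL4A6 stood at 22.3 and 28.7 CPM in untreated HT1376 CT, where COL4A3 and COL4A4 were at 0.0748 and 0.228. In untreated HT1376 FOXP3 KO the 4 chains were at 13.4 (COL4A5), 7.37 (COL4A4), 5.73 (COL4A3) and 5.28 (COL4A6) CPM per kilobase, with the last 2 inside each other's spread.

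COL18A1, a heparan sulfate collagen of basement membranes, had 0.175, 0.477 and 0.552 normalized CPM in HT1376 CT and 8.47, 10.1 and 4.73 in HT1376 FOXP3 KO. Its log2 fold changes were 4.19 ± 0.44 (adjusted p = 3.66e-05) and 4.91 ± 0.50 under IFNγ (adjusted p = 2.76e-05). SLC19A1, on the opposite strand, shares 18.5% of its exonic bases, and the strand setting of the counting is not stated, so reads of the 2 genes may not be separated. COL15A1, a related chain, was not called in either comparison (means of 5.30 and 3.72 normalized CPM without IFNγ). COL4A1 and COL4A2, the widespread type IV chains, were at or near zero in both untreated lines, with at most 7 counts of COL4A1 and 2 of COL4A2 in a library.

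**Figure D4:**
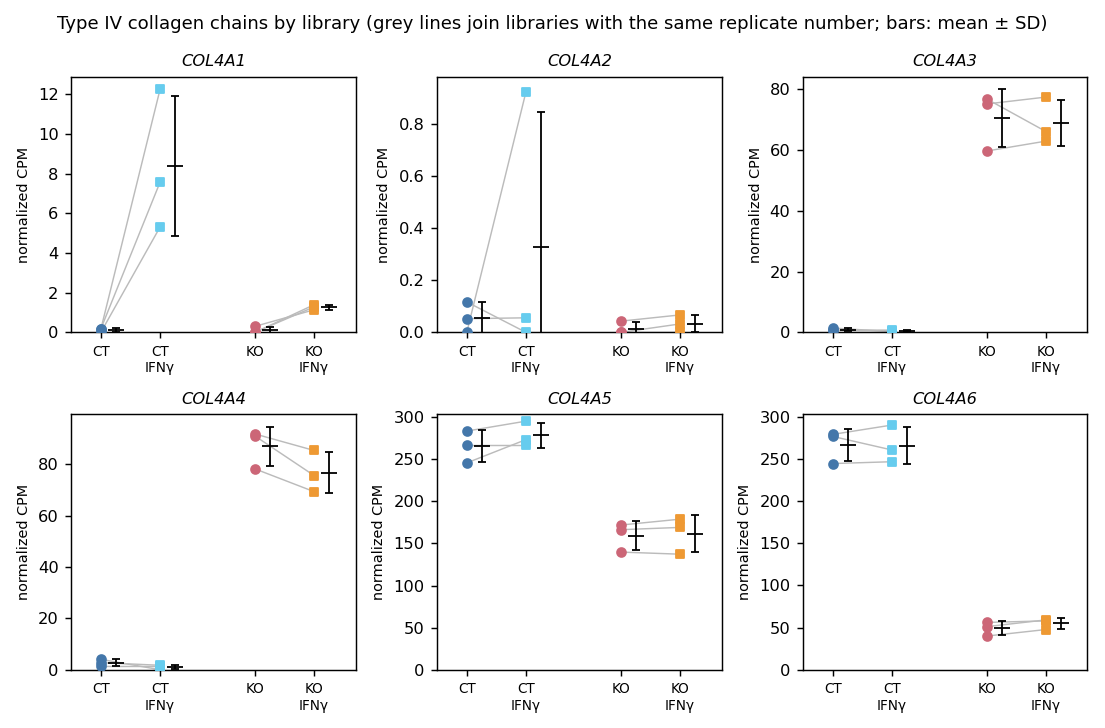
Normalized CPM of the 6 type IV collagen chains in each library, with mean ± SD of 3 libraries and grey lines between libraries of 1 line with the same number; each panel has its own axis from 0. COL4A3 and COL4A4 are near the axis in HT1376 CT and at 59.6 to 91.9 in untreated HT1376 FOXP3 KO. COL4A5 and COL4A6 are lower in HT1376 FOXP3 KO. COL4A1 is raised with IFNγ in HT1376 CT, and its response in HT1376 FOXP3 KO was not called by edgeR.

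Among the other chains, the FACIT members COL12A1, COL14A1 and COL21A1 were higher in HT1376 FOXP3 KO and COL19A1 was nearly absent there. FACIT chains sit on the surface of collagen fibrils and link them to other matrix proteins. COL12A1 had 571, 452 and 352 normalized CPM in untreated HT1376 CT and 2104, 2135 and 2102 in untreated HT1376 FOXP3 KO. With a log2 fold change of 2.21 ± 0.16 (adjusted p = 2.05e-06), and 2.55 ± 0.23 under IFNγ (adjusted p = 1.23e-05), it gave most of the gain in the collagen sum. COL14A1 had 0.584, 0.318 and 0.920 normalized CPM in HT1376 CT and 24.04, 48.6 and 78.5 in HT1376 FOXP3 KO. Its log2 fold changes were 6.19 ± 0.48 (adjusted p = 3.95e-06) and 6.36 ± 0.57 under IFNγ (adjusted p = 1.15e-05). COL21A1 had 2, 4 and 1 counts in the untreated HT1376 CT libraries and 77, 69 and 115 in those of HT1376 FOXP3 KO (log2 fold change 5.50 ± 0.62, adjusted p = 6.17e-05). Under IFNγ, with 3, 0 and 2 counts in HT1376 CT against 38, 57 and 152, the ratio of counts was 29.1 (95% exact counting interval 12.3 to 90.5, adjusted p = 0.000201).

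COL19A1, a FACIT-like chain of basement membrane zones, had 115, 108 and 385 counts in untreated HT1376 CT and 0, 1 and 2 in HT1376 FOXP3 KO. The ratio of counts was 155 higher in HT1376 CT (95% exact counting interval 52.7 to 753, adjusted p = 3.33e-06). Under IFNγ it had 66, 50 and 149 counts in HT1376 CT and none in HT1376 FOXP3 KO, which is at least 42.4-fold lower against a floor of 3 counts per library (adjusted p = 1.29e-05). The intervals and floors here cover counting error only. COL9A2 and COL9A3, chains of the cartilage FACIT type IX, were lower without IFNγ with log2 fold changes of -2.13 ± 0.39 and -2.28 ± 0.54 (adjusted p = 0.00166 and 0.00828), at means of 3.30 and 1.21 normalized CPM in HT1376 CT. With IFNγ COL9A2 stayed lower (-2.60 ± 0.56, adjusted p = 0.00475, or 0.0527 without the IFNγ-treated HT1376 CT library 13) and COL9A3 did not pass (adjusted p = 0.197). TCFL5, on the opposite strand, shares 3.20% of the exonic bases of COL9A3. COL16A1 was not called in either comparison, COL22A1 was tested without IFNγ only and not called, and COL20A1 was not tested between the lines.

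Of the 5 type VI chains, which form beaded filaments around cells, COL6A1 and COL6A3 were lower in HT1376 FOXP3 KO, COL6A2 did not pass without IFNγ, and COL6A5 and COL6A6 were not tested. COL6A3 had 13.0, 15.8 and 13.7 normalized CPM in HT1376 CT and 0.774, 2.42 and 1.61 in HT1376 FOXP3 KO (log2 fold change -3.21 ± 0.34, adjusted p = 3.88e-05, and -3.37 ± 0.31, adjusted p = 1.39e-05, under IFNγ). COL6A1, named here for this trimer after its values were seen, fell from a mean of 24.4 ± 5.95 to 4.28 ± 0.226 normalized CPM (log2 fold change -2.50 ± 0.21, adjusted p = 7.07e-06). COL6A2, 93061 bases downstream of COL6A1 on chromosome 21, had 3, 4 and 9 counts in untreated HT1376 CT and 1, 0 and 2 in HT1376 FOXP3 KO. Under IFNγ it had 1, 2 and 7 counts in HT1376 CT and none in HT1376 FOXP3 KO, at least 1.53-fold lower (adjusted p = 0.0422). That call was lost with the block (adjusted p = 0.0863) and in each fit without 1 of the IFNγ-treated HT1376 FOXP3 KO libraries (adjusted p up to 0.116). COL6A1 and COL6A3 were thus measured without comparable amounts of COL6A2, at 4.40, 0.658 and 0.0456 CPM per kilobase for COL6A1, COL6A3 and COL6A2 in untreated HT1376 CT.

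COL8A1, a short-chain collagen of vessel and corneal matrices, had 44.6, 24.7 and 15.3 normalized CPM in untreated HT1376 CT and 0.258, 1.52 and 1.61 in HT1376 FOXP3 KO. Its log2 fold changes were -4.73 ± 0.55 (adjusted p = 7.38e-05) and -5.21 ± 0.58 under IFNγ (adjusted p = 5.74e-05). COL13A1, a transmembrane collagen of cell-matrix contacts, had 7.53, 8.82 and 10.4 normalized CPM in HT1376 CT and 0.0860, 1.34 and 0.288 in HT1376 FOXP3 KO (log2 fold change -4.22 ± 0.60, adjusted p = 0.000318, and -3.92 ± 0.58, adjusted p = 0.000433, under IFNγ). COL28A1 fell from a mean of 13.3 ± 4.10 to 4.84 ± 1.71 normalized CPM (log2 fold change -1.45 ± 0.30, adjusted p = 0.00385). Under IFNγ COL28A1 was just past the threshold (-0.99 ± 0.34, adjusted p = 0.0469) and was lost in 5 of 6 fits without 1 library (adjusted p up to 0.149).

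COL17A1 and COL7A1, the chains that anchor epithelial cells, were not called. COL17A1 had 770, 1025 and 859 normalized CPM in untreated HT1376 CT and 512, 1077 and 469 in HT1376 FOXP3 KO, where the library numbered 12 was about the level of HT1376 CT and the others below it. The log2 fold change was -0.36 ± 0.27 (adjusted p = 0.349), and -0.72 (adjusted p = 0.000465) without the libraries numbered 12 and -0.46 (adjusted p = 0.00528) with the block. Under IFNγ it was -0.08 (adjusted p = 0.855), and -0.49 (adjusted p = 0.004) without them. COL7A1 had means of 41.2 ± 11.7 and 28.9 ± 9.45 normalized CPM (log2 fold change -0.51 ± 0.25, adjusted p = 0.144). It was called lower with the block (adjusted p = 0.00432) and without the libraries numbered 12 (-0.58, adjusted p = 0.0257). Under IFNγ its log2 fold change had the other sign and did not pass. It was 0.12 ± 0.27 (adjusted p = 0.776), 0.13 with the block (adjusted p = 0.61) and 0.19 without the libraries numbered 12 (adjusted p = 0.538). COL17A1 and COL7A1 were also called without the untreated HT1376 FOXP3 KO library 12 alone (-0.82 and -0.76, adjusted p = 0.000472 and 0.0164).

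Promoter sequence was searched for strings of the forkhead kind, since FOXP3 is a forkhead factor. RefSeq gave 44 promoter windows for 32 of the 44 genes, each of 300 bases around a start in GRCh38.p14. Some chains called between the lines had no window and were not searched. These were COL1A2, COL3A1 and COL14A1 among the higher chains, and COL1A1, COL6A1, COL8A1 and COL9A3 among the lower ones. The 4 strings were TGTTTAC or its variant ATAAACA, and also ACAAACA or its variant GCAAACA, and at least 1 occurred on either strand in 5 of the 44 windows, beside 15.1% of 35116 RefSeq promoters. Both windows with a match among chains that were lower in HT1376 FOXP3 KO are printed with the matching letters in capitals, from chr10:69801782-69801811 on the plus strand (113 bases before the start) and chr7:7535892-7535921 on the minus strand (37 bases before it). The other 3 belong to COL9A1, which was not tested, and COL11A2, which was not called. A match describes letters and not a binding site.
COL13A1: agtttgcataaATAAACAaatccaagccgt
COL28A1: gacttagtcgaATAAACAtgaacaaaagac

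The second question was how the chains responded to IFNγ. In HT1376 CT, COL4A1 rose while COL11A1 and COL1A1 fell, 3 of 35 chains tested (8.57%), beside 5.35% of all genes, 3.53% higher and 1.82% lower. COL4A1 had 3, 0 and 6 counts untreated and 78, 23 and 219 with IFNγ, or 0.175, 0 and 0.158 against 7.57, 5.31 and 12.2 normalized CPM. Every treated library was above every untreated one, and the log2 fold change of 5.99 ± 0.54 (adjusted p = 3.3e-05) was called in all 6 fits without 1 library. COL4A2, which shares the start region with it and encodes its partner, had at most 4 counts in any library. COL11A1 went from 5.72, 3.58 and 1.37 to 0.194, 0.231 and 0.559 normalized CPM, without overlap (log2 fold change -3.17 ± 0.65, adjusted p = 0.0147). This call was lost without the library 11 of either group (adjusted p = 0.0695 and 0.0542) and without all libraries numbered 12 (adjusted p = 0.0724). COL1A1 went from 25.8, 28.7 and 31.6 to 15.9, 17.3 and 18.2 normalized CPM (log2 fold change -0.73 ± 0.15, adjusted p = 0.0147). It was lost without the untreated library 13 or the treated library 11 or 13 (adjusted p = 0.0852, 0.0548 and 0.0523). Fibroblast markers went both ways with IFNγ. In HT1376 CT, FAP went from 0.646 to 3.03, ACTA2 from 0.559 to 4.42, DCN from 1.01 to 2.20 and LUM from 0.199 to 0.595 normalized CPM. THY1 went from 7.52 to 3.19, TAGLN from 1.53 to 0.943, PDGFRB from 0.220 to 0.0970 and PDGFRA from 0.172 to 0.0323. POSTN and VIM had no count in treated HT1376 CT. In HT1376 FOXP3 KO, ACTA2 went from 0.981 to 3.04 and DCN from 106 to 114. FAP went from 0.914 to 0.487 there, LUM from 79.6 to 52.3, TAGLN from 6.25 to 4.95 and PDGFRB from 1.84 to 1.27. The part of these markers in the collagen responses was not tested.

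The replicate number as a block, which compares each treated library with the untreated one of the same number, raised these counts to 2 chains higher and 6 lower, beside 18.6% of all genes, 8.67% higher and 9.88% lower. Simulated counts were drawn without an effect of the replicate number. On them the block, and DESeq2, made a larger share of false calls than edgeR without the block in all 5 comparisons. They cannot show how the block performs on libraries that pair by number, as these do within a line. COL1A2, at 29.2, 14.9 and 30.4 normalized CPM untreated and 14.4, 3.69 and 11.7 treated, had a log2 fold change of -1.24 ± 0.36 (adjusted p = 0.0803) and -1.32 with the block (adjusted p = 2.66e-16). It was also called by DESeq2 (adjusted p = 0.0105), without the untreated library 12 (adjusted p = 0.0328) and without the libraries numbered 12 (adjusted p = 0.00357). COL5A1 fell in all 3 pairs, from 5.08, 21.6 and 22.8 to 1.75, 4.15 and 8.61 normalized CPM (log2 fold change -1.68 ± 0.57, adjusted p = 0.135, and -1.65, adjusted p = 1.1e-15, with the block). It was called without the untreated library 11 alone (-2.10, adjusted p = 0.025). COL3A1 was lower in all 3 pairs, at 1.64, 0.715 and 2.52 normalized CPM untreated and 0.582, 0.462 and 0.838 treated (log2 fold change -1.30 ± 0.56, adjusted p = 0.249, or 0.0531 with the block and 0.0186 with the block under the bias-adjusted deviance). COL7A1 and COL12A1 were also lower in all 3 pairs, by 0.61 and 0.33 on the log2 scale (adjusted p = 0.248 and 0.544, or 1.69e-06 and 1.17e-07 with the block). COL12A1 was called without the treated library 11 (-0.73, adjusted p = 0.0406). COL8A1 was higher in all 3 pairs, at 44.6, 24.7 and 15.3 against 69.7, 44.8 and 26.5 normalized CPM (log2 fold change 0.76 ± 0.38, adjusted p = 0.337, or 9.55e-11 with the block). The block under the bias-adjusted deviance gave a higher adjusted p for all of these chains but COL3A1. It was 5.85e-05 for COL1A2, 7.92e-05 for COL5A1, 0.000178 for COL8A1, 0.00113 for COL7A1 and 0.0112 for COL12A1. By group, the median log2 fold change was -0.98 over 10 fibrillar chains, -0.03 over 7 basement membrane chains and -0.13 over 18 other chains, beside -0.02 over all genes tested. Of all 35 chains 7 had an unadjusted p under 0.05 (17.7% of all genes did), 5 of them fibrillar. None of the 18 other chains was called by edgeR with all 6 libraries, the filter on low counts and no block, and 1 had an unadjusted p under 0.05.

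COL7A1 was 1 of 2 member genes with the string TTCNNNGAA in a RefSeq promoter window, the spaced palindrome to which STAT factors of the IFNγ pathway can bind. The string occurred in 2 of the 44 windows, beside 7.66% of all RefSeq promoters. COL11A2, not called, was the other. The COL7A1 window, chr3:48595472-48595501 on the minus strand, holds it 162 bases before the start, shown in capitals, with a second match right after it. No such string was in the window of COL4A1, which says only that these letters are not in those 300 bases.
COL7A1: atgcagaaccTTCTGGGAAattcccagaag

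In HT1376 FOXP3 KO, no chain of 31 tested passed the threshold with edgeR, where 0.982% of all genes did, 0.978% higher and 0.00414% lower. COL4A1 was the 1 chain with an unadjusted p under 0.05 (5.37% of all genes) and the 1 called by DESeq2 (1.42% of all genes). It had 7, 0 and 0 counts untreated and 17, 12 and 43 with IFNγ, or 0.301, 0 and 0 against 1.14, 1.28 and 1.39 normalized CPM. The groups did not overlap. The log2 fold change was 3.32 ± 0.87 (adjusted p = 0.251, or 0.0222 by DESeq2 and 7.8e-05 with the block), and the test passed without the untreated library 11, which left no count in the untreated group (adjusted p = 0.0453). With the block, COL11A1 and COL5A1 were called lower as well, 3 chains in all (9.68%) beside 5.53% of all genes, 3.92% higher and 1.6% lower. COL11A1 fell in all 3 pairs, from 1.29, 3.85 and 4.50 to 0.335, 1.497 and 2.50 normalized CPM (log2 fold change -1.07 ± 0.64, adjusted p = 0.999, and -1.20, adjusted p = 0.00886, with the block). COL5A1 went from 118, 316 and 148 to 97.2, 273 and 122 normalized CPM, lower in all 3 pairs by less than the spread between libraries (log2 fold change -0.22 ± 0.44, adjusted p = 0.999, or 0.00422 with the block), and its sign turned without the untreated library 12 or the treated library 11 (0.35 and 0.04). The block under the bias-adjusted deviance gave adjusted p of 0.00934 for COL4A1, 0.0458 for COL11A1 and 0.0231 for COL5A1. COL1A1 was 7.80 ± 0.664 and 6.41 ± 1.18 normalized CPM and COL1A2 362 ± 76.2 and 336 ± 69.1, neither called.

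**Figure D5:**
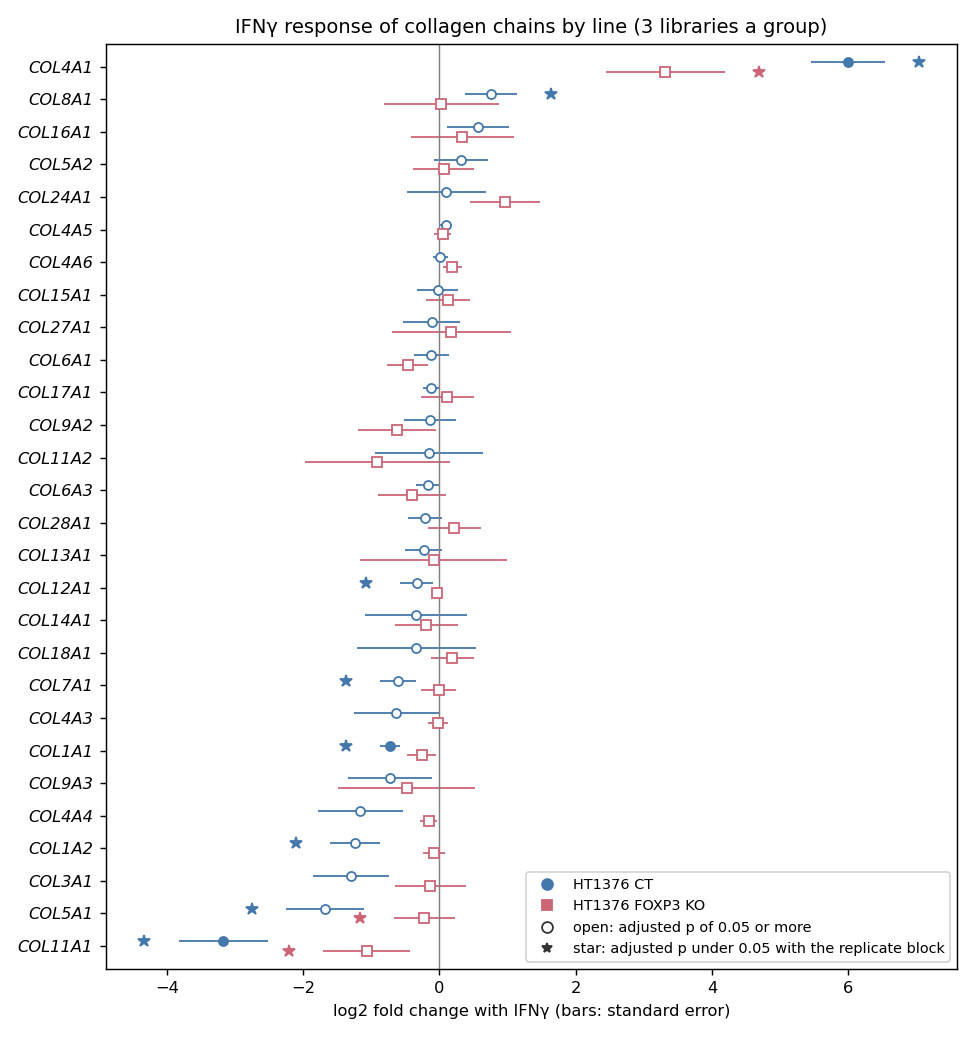
Log2 fold changes with IFNγ in HT1376 CT (blue circles) and HT1376 FOXP3 KO (red squares) for the 28 chains tested in both lines and above 3 counts in a library of each group, with standard errors. Filled symbols passed the threshold, and stars beside a symbol mark chains that passed it with the replicate block. COL4A1 is the rightmost in both lines (5.99 and 3.32) and COL11A1 the leftmost (-3.17 and -1.07).

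Under IFNγ, COL4A1 was 6.47-fold lower in HT1376 FOXP3 KO than in HT1376 CT (log2 fold change -2.69 ± 0.36, adjusted p = 0.000216, called in all 6 fits without 1 library). Whether the response itself differs between the lines was tested by the interaction of line and IFNγ over all 12 libraries. No chain of 38 tested passed with edgeR or with DESeq2, beside 0.111% and 0.575% of all genes (0.0036% higher and 0.108% lower with edgeR). An unadjusted p under 0.05 was seen for 2 chains, beside 6.21% of all genes. They were COL4A1, whose log2 response was lower in HT1376 FOXP3 KO by 2.73 ± 1.16 (adjusted p = 0.757), and COL1A2, whose fall in HT1376 CT was smaller in HT1376 FOXP3 KO (difference 1.14 ± 0.44, adjusted p = 0.715). The sign of the COL4A1 difference turned without the untreated HT1376 FOXP3 KO library 11 (1.496), the only library of its group with a count. For COL11A1 the difference was 2.11 ± 1.03 (adjusted p = 0.818). With the number as a block, COL1A2 passed (adjusted p = 0.0109, and 0.054 with the bias-adjusted deviance), beside 1.21% of all genes, 0.525% higher and 0.683% lower. With a block within each line, COL1A2, COL5A1, COL3A1, COL7A1, COL12A1 and COL17A1 passed, all with a positive difference, beside 4.75% of all genes, 2.69% higher and 2.06% lower. In the fits without a block, the log2 fold change with IFNγ of the first 5 of these chains was below 0 in both lines. It was nearer to 0 in HT1376 FOXP3 KO (-0.01 to -0.22, against -0.33 to -1.68 in HT1376 CT). For COL17A1 it was -0.13 in HT1376 CT and 0.12 in HT1376 FOXP3 KO. With the block, COL7A1 in HT1376 FOXP3 KO was at 0.015, on the other side of 0. Of the chains that passed with the block within each line, COL1A2, COL5A1 and COL7A1 passed with the bias-adjusted deviance as well. The comparisons of treatments and of lines share libraries, so their values for a chain are not independent.

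Enzymes that modify, process and bind collagen also differed between the lines. The list held 52 genes in 6 roles, of which 46 were tested without IFNγ. In HT1376 FOXP3 KO 6 of them were raised and 15 reduced (45.7%, beside 32.1% of all genes), and the block called 11 higher and 16 lower, beside 36.6% of all genes. Under IFNγ 8 of 47 were higher and 11 lower (40.4%, beside 28.9%), and the block called 13 and 14, beside 34%. By role, 1 of 18 chaperones and modifying enzymes was higher and 5 lower, 1 and 3 of 7 genes of propeptide processing, 1 and 1 of 4 cross-linking genes, 1 and 3 of 5 collagenases and gelatinases, 2 and 2 of 8 receptors, and 1 of 4 secretion genes was lower. Among enzymes that hydroxylate prolines of the chains, P3H3 fell from 3.39 ± 0.297 to 0.0143 ± 0.0248 normalized CPM, a ratio of counts of 182 (95% exact counting interval 32.3 to 7210, adjusted p = 1.13e-05), while P3H1 rose from 10.8 ± 2.46 to 26.7 ± 2.97 (log2 fold change 1.30 ± 0.19, adjusted p = 0.00036). Of the proteases that trim propeptides, TLL1 was 20.8 ± 5.55 in HT1376 CT and 0.145 ± 0.179 in HT1376 FOXP3 KO (log2 fold change -6.87 ± 0.50, adjusted p = 2.31e-06). ADAMTS14 had no count in untreated HT1376 FOXP3 KO, at least 5.12-fold lower (adjusted p = 0.00208).

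The cross-linking enzymes LOXL1 and LOXL4 moved apart. LOXL1 had a ratio of counts of 19.9 higher in HT1376 CT (95% exact counting interval 6.55 to 98.4, adjusted p = 0.00413), and LOXL4 rose from 1.30 ± 0.885 to 8.40 ± 2.93 normalized CPM (log2 fold change 2.77 ± 0.44, adjusted p = 0.000693). MMP1, the collagenase that cuts fibrillar collagen, fell from 3.59 ± 1.33 to 0.213 ± 0.232 normalized CPM (log2 fold change -4.12 ± 0.72, adjusted p = 0.00127), and the gelatinase MMP2 from 1.22 ± 0.622 to 0.104 ± 0.144 (ratio of counts 15.3, 95% exact counting interval 5.74 to 57.5, adjusted p = 0.00846). The collagen receptor chain ITGA2 was 1585 ± 420 in HT1376 CT and 224 ± 51.6 in HT1376 FOXP3 KO (log2 fold change -2.82 ± 0.21, adjusted p = 2.61e-06). DDR2, a receptor kinase for fibrillar collagen, rose from 8.60 ± 2.21 to 22.4 ± 2.84 (log2 fold change 1.38 ± 0.21, adjusted p = 0.000489). SEC24D, a coat protein of the vesicles that carry procollagen, fell by 0.51 ± 0.12 on the log2 scale (adjusted p = 0.0084). Under IFNγ P3H3, P3H1, TLL1, LOXL1, LOXL4, MMP1, MMP2, ITGA2, DDR2 and SEC24D were called on the same side. ADAMTS3 (log2 fold change 3.19 ± 1.08, adjusted p = 0.0464) and SEC23A (0.39 ± 0.12, adjusted p = 0.0289) were higher. Their means were also higher in HT1376 FOXP3 KO without IFNγ. In HT1376 CT and HT1376 FOXP3 KO they were 0.114 and 2.27 normalized CPM for ADAMTS3 and 46.2 and 60.1 for SEC23A.

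With IFNγ in HT1376 CT, 3 of 46 genes of that list rose and 2 fell (10.9%, beside 5.35% of all genes), and the block called 7 and 10, beside 18.6% of all genes. MMP1 rose from 3.59 ± 1.33 to 21.0 ± 4.66 normalized CPM (log2 fold change 2.53 ± 0.29, adjusted p = 0.00024), without a fibrillar chain called higher. PPIB, a proline isomerase of the endoplasmic reticulum, rose by 0.61 ± 0.11 on the log2 scale (adjusted p = 0.00589) and SEC24D by 0.42 ± 0.11 (adjusted p = 0.0489), while P3H2, which acts on basement membrane collagen, fell by 0.54 ± 0.13 (adjusted p = 0.0381). In HT1376 FOXP3 KO none of 41 genes was called by edgeR, beside 0.982% of all genes, and 2 had an unadjusted p under 0.05, beside 5.37%. DESeq2 called 1, beside 1.42% of all genes, and the block called 4, 1 higher and 3 lower, beside 5.53%.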

How the data were processed

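Total RNA of 12 HT1376 libraries was sequenced after ribosomal depletion. Per the labels and the study's methods, the authors removed Mycoplasma reads with Kraken, aligned with STAR (2.7.11a in the submitters' processing notes) to GRCh38 with an Ensembl annotation, and deposited raw htseq-count counts per gene. Strand and multiple-match settings were not given in the sources used here. Groups follow the sample labels.

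Counts were normalized with TMM in R 4.3.3. Each comparison was a quasi-likelihood F test in edgeR 4.0.16 (default deviance) on genes with at least 10 counts in the libraries of a fit. The 4 pairwise comparisons used 6 libraries each and the interaction 12. Benjamini-Hochberg adjustment was over all genes tested, with a threshold of 0.05, and SE came from the F statistic. Alternatives included DESeq2 1.42.0, other filters, a replicate block, the bias-adjusted deviance and leaving out each library. The fits were tested on simulated counts, where the share of false calls in the edgeR fit as described was above the threshold in each comparison, and was larger with the block and with DESeq2. These counts held no effect of the replicate number, so they cannot show how the block performs on paired libraries. Between genes, CPM were divided by the merged exon length of GENCODE 44. Ratios of counts carry exact Clopper-Pearson intervals.

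The members and lists were chosen with earlier results of these data known. Values per library are given for chains called in any fit, and where over 12 were called, for the 12 of greatest change and the 5 of highest CPM. COL11A1 is always given. From the list of collagen enzymes and receptors, the 2 called genes of greatest change in each role are named.

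Numbers 11, 12 and 13 occur in every group. Deviations from the group mean correlated for the same number within a line (r of 0.434 to 0.683 over 13116 genes, and 0.139 to 0.266 over 27806). Between lines r was 0.179 to 0.436 and 0.0408 to 0.136. The numbers were taken to pair libraries within a line, while between lines the pairing depended on the genes used.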

Additional observations from a re-analysis of the deposited data

How the results depend on the processing

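Chain counts of the line comparisons stayed within 1.5 times of those given under each alternative that was run, with 9 higher without IFNγ in every fit without 1 library, 12 to 14 lower, and 9 to 10 higher and 10 to 13 lower under IFNγ. The IFNγ response counts depended on the processing. For IFNγ in HT1376 CT, 2 chains higher and 5 lower were called without a filter on low counts, 2 and 6 with the replicate block, and 2 and 7 with this block under the bias-adjusted deviance, COL3A1 being the seventh. A threshold of 1 on the absolute log2 fold change left 1 lower, and leaving out 1 library gave 1 to 3 lower and 1 higher. For IFNγ in HT1376 FOXP3 KO, 1 chain was called higher without a filter, with DESeq2 and with the block under either deviance, 2 were lower with the block under either deviance, and leaving out 1 library gave 0 to 1 higher. For the interaction, 2 chains were higher without a filter, 1 with the block, 6 with a block within each line and 3 with that block under the bias-adjusted deviance. The blocks under the bias-adjusted deviance, and leaving out all libraries numbered 12, were added after seeing the data. The causes were not tested.

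Signs turned for some differences near zero or resting on few counts. COL4A1 between the untreated lines (-0.042) was 0.029 with the bias-adjusted deviance and -0.44 to 0.55 over the fits without 1 library, and its interaction was -3.24 to 1.496 over such fits. COL11A1 between the untreated lines was -0.53 to 0.47, COL5A1 with IFNγ in HT1376 FOXP3 KO -0.83 to 0.35, and the interaction of COL17A1 -0.18 to 0.82. COL28A1 under IFNγ also lost its call with DESeq2 size factors (adjusted p = 0.0558) and with filterByExpr (adjusted p = 0.0603). Depth limits chains at 3 counts or fewer, whose folds are ratios or bounds.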
